A study of Mus musculus with 4 samples.

Results

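The replication-dependent histone genes encode the H1, H2A, H2B, H3 and H4 proteins that package newly copied DNA, and in the mouse they lie in the clusters Hist1 to Hist4. They were examined here for binding of CTCF, the zinc-finger protein that marks insulators and, with cohesin, anchors chromatin loops. Members were the protein-coding genes of the GENCODE M21 annotation whose symbols start with Hist1h, Hist2h, Hist3h or Hist4h, 67 of 21755 protein-coding genes on the autosomes and X. The genes were chosen by symbol, without the use of a binding value. Chromatin came from the hippocampus of adult male B6CASTF1/J mice aged 2 months, an F1 hybrid of the C57BL/6J and CAST/EiJ strains. CTCF chromatin immunoprecipitation and sequencing (ChIP-seq) gave 4 libraries, which formed 2 biological replicates with 2 technical libraries each. Each replicate was a pool of 7 tissue biosamples, and all samples shared the same genotype, age and lack of treatment. There is therefore a single group and no comparison between conditions.

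The values are peak signals, a score of the peak caller whose scale is not stated, and each replicate has 1 signal per peak. Read depth is unknown, and the labels do not say whether the animals of the pools were separate. The list used held 90278 summits (the base of highest signal in each peak) called in both replicates together at an IDR of 0.05. The irreproducible discovery rate (IDR) estimates from peak ranks which calls would not recur in a second replicate. No expression was measured, so the tissue could not be checked against marker genes. Adult hippocampus contains mostly non-dividing cells, whereas replication-dependent histone genes are transcribed in S phase.

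Transcription of these genes is coordinated by NPAT at the histone locus body, a nuclear body that forms on the clusters. Their mRNAs end in a stem-loop bound by SLBP instead of a poly(A) tail, and their 3′ ends are cut with the U7 small nuclear ribonucleoprotein. H2A and H2B genes often start head to head from a shared promoter. Many members are near-identical copies, so reads from one copy can match another.

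Of the 5 strongest histone promoter sites, 4 carried a match to the CTCF motif. A summit was called matched when the 12-base CTCF core motif lay within 50 bp of it on either strand with at most 1 mismatch. Of 21 distinct summits within 1 kb of a histone transcription start site (TSS), 5 were matched. They are shown in mm10 coordinates, 5′ to 3′ on the minus strand, with the match in capitals, because they are the only matched sites at histone promoters. The strong promoter sites of Hist3h2a and Hist1h4f had 2 mismatches and are not among them.
Hist1h4j site, chr13:21734271-21734302: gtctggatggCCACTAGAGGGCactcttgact
Hist1h4c site, chr13:23697553-23697584: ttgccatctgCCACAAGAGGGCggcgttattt
Hist2h4 site, chr3:96263464-96263495: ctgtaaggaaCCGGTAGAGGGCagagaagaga
Hist1h3e site, chr13:23563306-23563337: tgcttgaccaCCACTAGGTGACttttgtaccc
Hist4h4 site, chr6:136805365-136805396: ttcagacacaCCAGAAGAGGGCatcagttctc

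The Hist1h4j site matched the motif exactly, and the other 4 had 1 mismatch. A match was present at 23.8% of the 21 summits (95% exact Clopper-Pearson interval 8.22 to 47.2). Among all summits within 1 kb of a TSS in the genome the share was 27.3%, and among all summits it was 50.3%. The interval includes the promoter share. All 5 matched summits were nearest to a gene for H4 or H3, the core histones that form the central tetramer of the nucleosome.

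A histone gene was counted as occupied when a summit lay within 1 kb of one of its annotated TSSs. Occupied were 24 of 67 members, 35.8% (exact interval 24.5 to 48.5), and of all protein-coding genes 38.0% were occupied. Among protein-coding genes with 1 annotated TSS the share was 33.2%. Histone promoters are rich in CpG: their median ratio of observed to random-order CpG over 500 bp to each side of the TSS was 0.88, and the median over all protein-coding genes was 0.56. Genes whose CpG ratio lay in the interquartile range of the members, 0.81 to 0.93, were occupied in 58.2% of cases, and those that also had 1 annotated TSS in 55.9%. In this list the member share was thus near that of all genes. Its interval lay below the shares of genes in that CpG range. The member share was not limited to this range, so this second comparison is between unlike sets. Without 10 members in mostly copied sequence, described further on, the share was 42.1% and its interval reached 55.9%, so the second statement rests in part on those members. The first statement depends on the list: in the list from pooled reads 14 of 67 members were occupied, beside 31.2% of all protein-coding genes. These shares are descriptions, since neighbouring histone genes share summits and copied sequence.

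**Figure D1:**
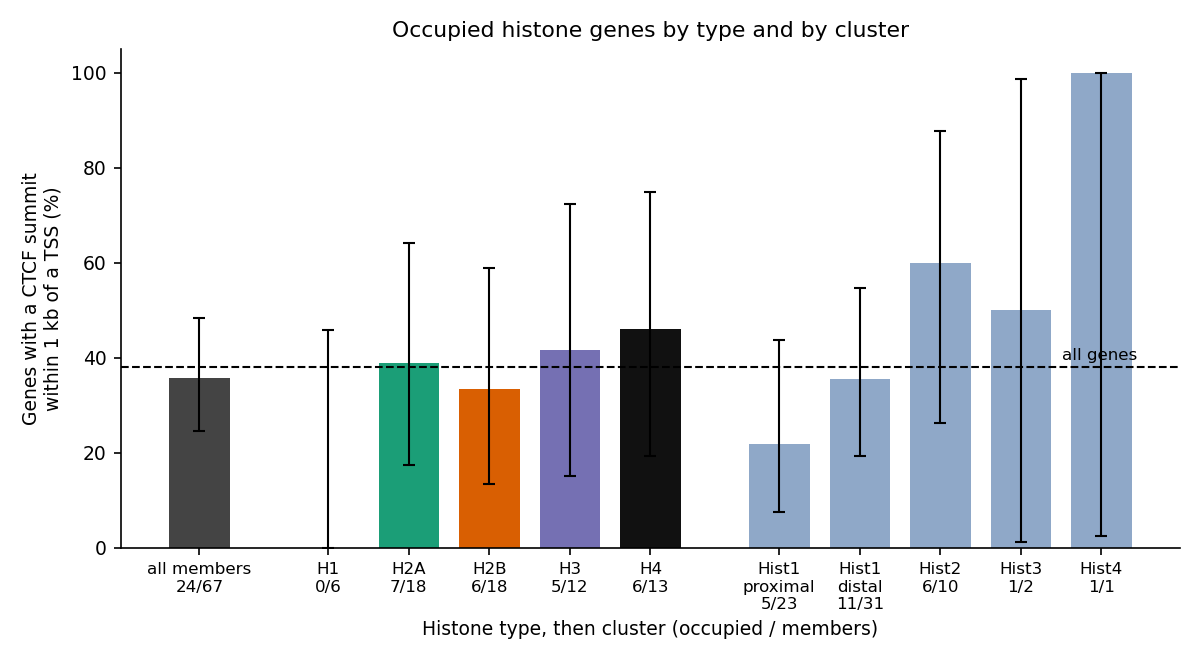
Share of histone genes with a CTCF summit within 1 kb of a TSS (y axis, percent), for all members, for each histone type and for each cluster; bars are shares, error bars are 95% exact intervals, and the dashed line is the 38.0% of all protein-coding genes. No H1 gene was occupied, 6 of 13 H4 genes were, and every interval drawn includes the dashed line.

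H4 genes, which encode the least varied core histone, held the strongest sites. Of 13 H4 genes 6 were occupied, with a median signal of 476 over the occupied genes. Hist1h4j (ENSMUSG00000067455.5, plus strand of chromosome 13) had the strongest histone promoter summit, 338 in replicate 1, 379.6 in replicate 2 and 713 in the combined list. That signal was higher than 89.6% of all summits in the genome, and the summit lay 767 bp upstream of the TSS. Hist1h4c (ENSMUSG00000060678.5) followed with 331 and 310.1 in the replicates and 641 combined. Its summit lay 868 bp downstream of the TSS, just past the 3′ end of the short gene body. Hist2h4 (ENSMUSG00000091405.2) on chromosome 3 had 323 and 294 in the replicates and 613 combined, 168 bp upstream of its TSS. In these genes the replicates lay close together and far above the weak histone sites.

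The other occupied H4 genes were weaker. Hist1h4f had 162 and 180.0 in the replicates and 339 combined, with the summit 41 bp upstream of the TSS. Hist4h4, the sole member of the Hist4 cluster, had 85.0 and 70.6 in the replicates and 156 combined, 924 bp upstream. Hist1h4a had 48.6 and 40.0 in the replicates and 86.7 combined. By summit, the 6 nearest to an H4 gene had a median signal of 476 and 4 of them were matched to the motif. The 15 nearest to another histone type had a median of 102 and 1 was matched. These summits also differed in copied sequence: a median of 0% of the 32-base words around the 6 recurred in the genome, and 34.1% around the 15. Histone type and copied sequence were not tested apart. Among the unoccupied H4 genes, Hist1h4i had its nearest summit at 2967 bp with a signal of 689, and Hist1h4k at 3084 bp with a signal of 103.

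H3 genes ranged widely. Of 12 members 5 were occupied, with signals from 51.8 to 572 and a median of 109.7. Hist1h3e had 282 and 292 in the replicates and 572 combined, 944 bp upstream of its TSS. Hist1h3c lay within reach of a summit of 165 that it shared with the H2B gene Hist1h2bb, and of a nearer one of 102 at 57 bp downstream. Hist1h3g had a signal of 109.7, Hist1h3b 94.8 and Hist2h3b 51.8. Apart from Hist1h3e, none of the promoter summits nearest to an H3 gene was matched to the motif.

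H2A and H2B genes, whose products pair as dimers on the nucleosome, had mostly weak summits. Of 18 H2A genes 7 were occupied, with a median signal of 103, and of 18 H2B genes 6, with a median of 81.2. The exception was Hist3h2a in the small Hist3 cluster on chromosome 11, which had 287 and 270.3 in the replicates and 554 combined. Its summit lay 319 bp downstream of the TSS in coding sequence and within 1 kb of a TSS of Trim17 as well. Hist2h2ab had 109 and 125 in the replicates and 233 combined, 526 bp upstream, at a summit whose nearest protein-coding gene was Bola1. Hist1h2bb had 81.6 and 81.2 in the replicates and 165 combined. Since H2A and H2B neighbours share summits, the 13 occupied genes of these types lay within 1 kb of 10 distinct summits.

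H1 linker histone genes had no summit within 1 kb. None of 6 was occupied, which allows a share of up to 45.9% (exact interval), so the count does not separate them from the other types. The nearest summit to Hist1h1d lay 1573 bp from its GENCODE start with a signal of 339, and that to Hist1h1t lay 1772 bp away with a signal of 641. In the RefSeq annotation the promoter window of Hist1h1d is chr13:23554782-23555081, which lies further from that summit at 23551689. All distances given here are to GENCODE starts. The H1 median distance to a summit was 4764 bp, and the median over all members was 2742 bp. Hist1h1t, Hist1h2ba and Hist1h2aa, which are expressed in the male germ line, were all unoccupied.

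**Figure D2:**
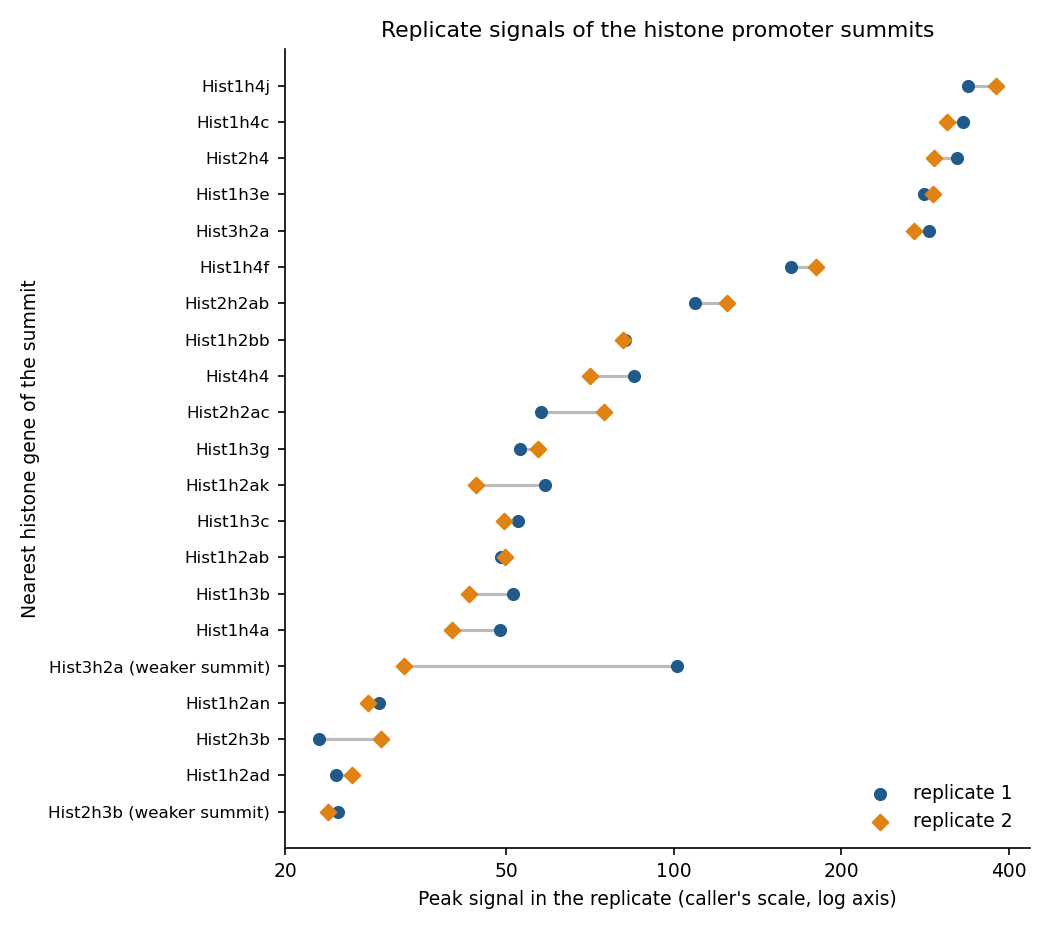
Peak signal in replicate 1 (circles) and replicate 2 (diamonds) for the 21 distinct summits within 1 kb of a histone TSS, on a log axis in the caller's unstated unit; each row is a summit, named by its nearest histone gene, in order of the combined signal. The upper 5 rows lie between 270.3 and 379.6, and the weaker Hist3h2a summit has the widest gap, 101.3 in replicate 1 and 32.7 in replicate 2.

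The replicates differed little at most histone promoter summits. Replicate 1 was higher at 12 summits and replicate 2 at 9. With the genome-wide median removed, the log2 ratio of replicate 2 to replicate 1 was largest at the Hist2h2ac summit, 0.29, followed by Hist2h3b at 0.28 and Hist2h2ab at 0.10. It was smallest at the weaker summit of Hist3h2a, -1.72, then at Hist1h2ak, -0.50, and at Hist1h4a, -0.37. The Hist3h2a shoulder therefore stood apart, while the strong summit of the same gene had a ratio of -0.18. Both summits lie in the same peak, and the shoulder's combined signal, 82.8, was below its replicate 1 signal, 101.3. How summits within a peak were paired between the replicates is not stated, so this gap is not read as a difference in binding.

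The summits differed by position, and also in copied sequence. Those up to 500 bp from the nearest histone TSS numbered 14, with a median signal of 103 and 1 match to the motif, the Hist2h4 site. The 7 from there to 1 kb had a median of 233, and 4 were matched. Of the 32-base words within 100 bp of a summit, a median of 34.7% recurred in the genome for the 14 and 0% for the 7. Position and copied sequence were not tested apart. A further 47 summits lay beyond 1 kb but inside the cluster intervals, with a median of 273 and 17 matches. Over the 21 promoter summits the median was 109.7, and over all 12553 promoter summits of the genome it was 162. The closest sites to histone TSSs were thus mostly among the weaker ones, and Hist2h4, Hist3h2a and Hist1h4f were the strongest exceptions.

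Of the 21 summits, 7 lay in histone coding sequence, at Hist1h2ak, Hist1h2an, Hist1h2ad, Hist1h2ab, Hist3h2a and, with 2 summits, Hist2h3b. Their median signal was 59.0, their range was 48.5 to 554, and none was matched to the motif. Around these 7 summits a median of 63.5% of the 32-base words recurred elsewhere in the genome. The summit in Hist1h2an and the weaker one in Hist2h3b had 100% recurring words. At the strong summits of Hist1h4j, Hist1h4c, Hist2h4 and Hist1h3e the value was 0%, but so it was at the weak ones of Hist1h3g, Hist1h3b and Hist1h4a. The matched Hist4h4 summit had 86.5%. Whether copied sequence had a part in the weak signals was not tested.

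**Figure D3:**
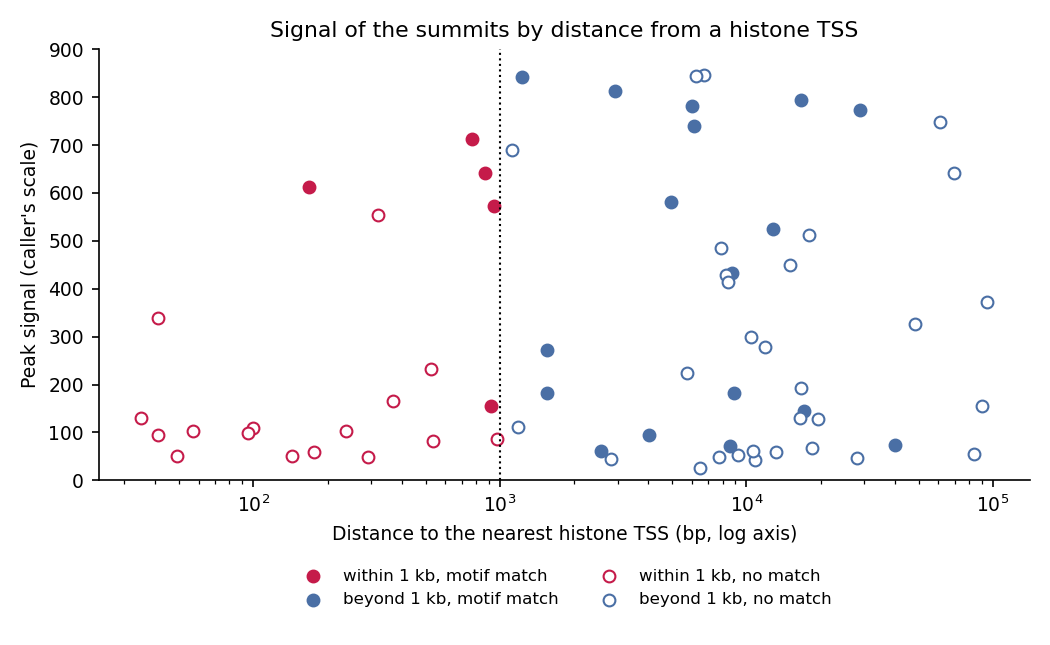
Peak signal (y axis, caller's unit) against distance to the nearest histone TSS (x axis, bp, log scale) for the 68 summits in the cluster intervals; filled points carry a match to the 12-base CTCF core motif, and the dotted line marks 1 kb. Below 500 bp 1 of 14 points is filled, and in the region from 500 bp to 1 kb 4 of 7 are.

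The 1 kb limit passed between strong sites. Just inside it were Hist1h4a at 970 bp, Hist1h3e at 944 bp and Hist4h4 at 924 bp, with signals of 86.7, 572 and 156. Just outside were Hist1h2bj at 1115 bp, Hist1h2bl at 1226 bp and Hist1h3d at 1239 bp, with signals of 689, 843 and 51.4. With a limit of 5 kb 45 members were occupied, and 59.6% of all protein-coding genes.

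H2A and H2B genes often lie head to head. In 13 member pairs the left gene lay on the minus strand and the TSSs were within 1 kb of each other. All but Hist1h2bh with Hist1h3f, an unoccupied H2B and H3 pair, joined an H2A and an H2B gene. A summit within 1 kb of either TSS was present in 4 pairs, 30.8% (exact interval 9.09 to 61.4), and in 61.3% of the 741 other protein-coding pairs of this layout. The interval reaches that share. Of the unoccupied pairs, Hist1h2bq with Hist1h2ao and Hist1h2ap with Hist1h2br lie in sequence that recurs in full elsewhere in the genome, and without them 4 of 11 pairs were occupied, 36.4% (10.9 to 69.2). The occupied pairs were Hist1h2ak with Hist1h2bn, Hist1h2an with Hist1h2bp, Hist1h2bf with Hist1h2ad, and Hist2h2ac with Hist2h2be. In the first 3 pairs the summit lay in the H2A coding sequence, with signals of 103, 59.0 and 51.4. Only in Hist2h2ac with Hist2h2be did it lie between the TSSs, which are 239 bp apart, with 57.6 and 74.9 in the replicates and 131 combined.

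The promoters of Hist2h2ac and Hist1h4f are printed because their summits lie inside them, and that of Hist1h2bq because its letters recur at Hist1h2br. The sequences come from RefSeq on GRCm38.p6, run from 250 bases before to 50 after the RefSeq start, and follow the minus strand of the genes. Capitals mark the TATA box letters TATAAA, the NF-Y site letters CCAAT and the octamer ATTTGCAT, searched on both strands.
Hist2h2ac promoter, chr3:96220831-96221130: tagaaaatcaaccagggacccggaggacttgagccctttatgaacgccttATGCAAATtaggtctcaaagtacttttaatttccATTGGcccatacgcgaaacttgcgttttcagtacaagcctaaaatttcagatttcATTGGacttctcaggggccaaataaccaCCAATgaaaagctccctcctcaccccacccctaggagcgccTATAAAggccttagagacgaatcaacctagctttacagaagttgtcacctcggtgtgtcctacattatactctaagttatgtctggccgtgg
Hist1h4f promoter, chr13:23551619-23551918: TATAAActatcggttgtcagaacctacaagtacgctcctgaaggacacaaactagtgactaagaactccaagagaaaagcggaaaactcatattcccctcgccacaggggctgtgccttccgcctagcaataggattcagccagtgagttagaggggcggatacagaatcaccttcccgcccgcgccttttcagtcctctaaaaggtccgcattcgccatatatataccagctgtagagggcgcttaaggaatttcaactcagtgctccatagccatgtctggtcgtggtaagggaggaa
Hist1h2bq promoter, chr13:21810150-21810449: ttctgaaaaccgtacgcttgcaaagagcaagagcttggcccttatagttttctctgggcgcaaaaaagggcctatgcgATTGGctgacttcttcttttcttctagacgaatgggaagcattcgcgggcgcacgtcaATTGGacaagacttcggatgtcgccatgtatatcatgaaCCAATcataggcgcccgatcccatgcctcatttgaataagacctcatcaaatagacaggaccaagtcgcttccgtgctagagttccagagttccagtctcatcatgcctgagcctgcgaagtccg

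The letters around the starts differed by histone type. CCAAT, the letters bound by the NF-Y complex, was present on either strand in 56 of 67 member windows of 300 bases around the annotated start, and in 38.9% of all protein-coding windows. All 18 H2A and all 18 H2B genes held it, as did 11 of 12 H3 and 5 of 6 H1 genes, but only 4 of 13 H4 genes. These counts use the GENCODE starts. For the H1 gene Hist1h1d the RefSeq window, chr13:23554782-23555081, lies downstream of the GENCODE start at 23553262 and holds both CCAAT and TATAAA. ATTTGCAT, the octamer bound by POU2F1, was present in 15 members, 7 H2A and 8 H2B genes, and in 1.59% of all windows. TATAAA was present in 37 members and in 12.7% of all windows. Occupied and unoccupied members differed little: CCAAT was present in 21 of 24 and 35 of 43, TATAAA in 13 of 24 and 24 of 43, and the octamer in 6 of 24 and 9 of 43. The windows of head-to-head H2A and H2B genes overlap, so the same letters can be counted for both genes, as with the octamer of Hist1h2ah and Hist1h2bk. Matches of different motifs may overlap, and a match is a description of letters only.

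Members in mostly copied sequence had no peak of any strength. Words of 32 bases were read at every 10 bases over 1 kb to each side of a gene start, and a word counted as recurring when it was found at least 2 times in the genome. The mean recurring share was 31.0% for members and 9.32% for all protein-coding genes. It exceeded 50% for 10 members. In the Hist1 cluster these were Hist1h2bq, Hist1h2ao, Hist1h4m, Hist1h4n, Hist1h2ap and Hist1h2br, at 95.4% to 100%, and in the Hist2 cluster Hist2h3c2, Hist2h2aa2, Hist2h2aa1 and Hist2h3c1, at 56.3% to 80.7%. All 10 were unoccupied, and none had a peak within 1 kb in the ranked list of 203931 peaks either, which holds calls below the threshold. Of all protein-coding genes with a recurring share over 50%, 3.82% were occupied.

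The copies were close to identical. The promoter windows of Hist1h2bq and Hist1h2br, aligned without gaps, showed 0 differences over 298 bases, and those of Hist1h2ao and Hist1h2ap 0 over 270. Hist1h4m and Hist1h4n differed at 1 of 300 bases, Hist2h3c1 and Hist2h3c2 at 1 of 285, and Hist2h2aa1 and Hist2h2aa2 at 1 of 242. How reads with several matches were treated is not given in the sources used here, so absence of a peak at these genes cannot be told apart from reads that could not be placed. Among the 57 members with a recurring share of at most 50%, 24 were occupied, 42.1% (exact interval 29.1 to 55.9), and among all protein-coding genes under this limit 40.2%.

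**Figure D4:**
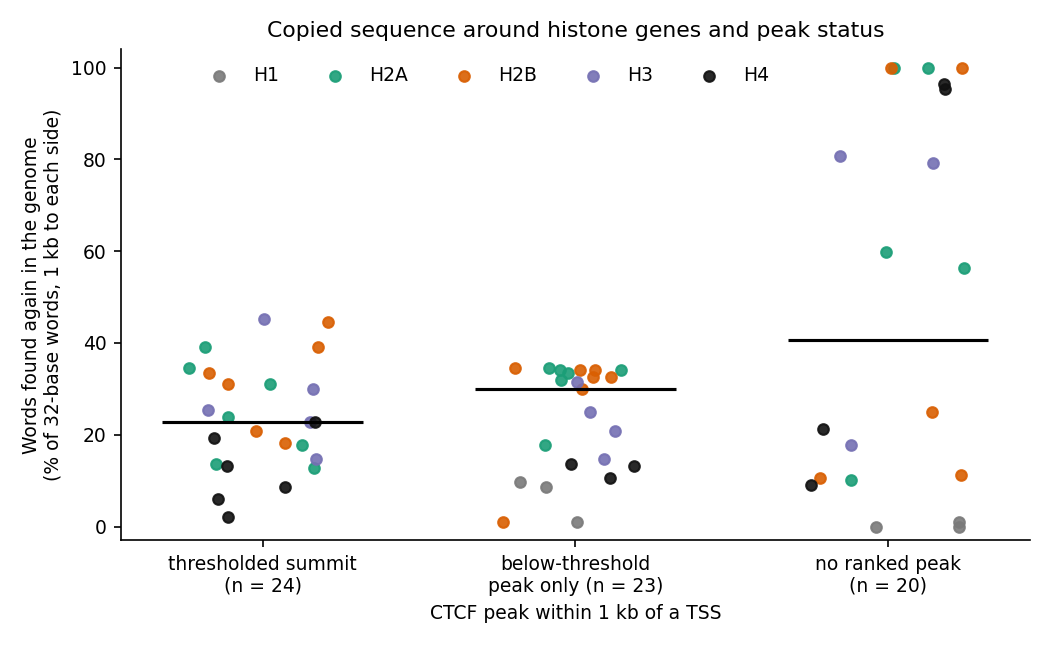
Share of 32-base words around each histone gene start that recur in the genome (y axis, percent), for members with a summit past the threshold, members with a weaker ranked peak alone, and members with no ranked peak within 1 kb; points are genes coloured by histone type, horizontal bars are medians and the sideways spread is random. The points above 50% all lie in the group of 20 members with no ranked peak.

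Weaker peaks were present at 23 of the 43 unoccupied members, with signals from 17.7 to 74.3 and a median of 40.7. The strongest lay at the pair Hist1h2ae and Hist1h2bg, with 46.8 in replicate 1, 29.2 in replicate 2 and 74.3 combined, at an IDR of 0.22. Hist1h1c had 26.5 and 41.5 in the replicates and 68.2 combined. The pair Hist1h2ac and Hist1h2bc had 22.9 and 44.6 in the replicates and 66.2 combined. In these 3 cases the replicates were further apart than at the strong H4 sites. Hist1h4h had a ranked peak of 56.3, Hist1h2af of 53.7, Hist1h2bm of 45.8, and Hist1h2bl, Hist1h2ai and Hist1h3h shared one of 44.9. Hist1h3d had 40.7, Hist1h1e 38.8, the pair Hist1h2ah and Hist1h2bk 35.6, Hist1h4i 34.9 and Hist1h3a 33.2. The pair Hist1h2ag and Hist1h2bj had 30.1, Hist1h3f 27.5, Hist1h4b 21.1, Hist1h1b 20.0 and Hist1h2be 17.7. The remaining 20 members had none, among them Hist1h1a, Hist1h1d and Hist1h1t. The share of all unoccupied protein-coding genes with such a weaker peak was not counted. The 23 of 43 is therefore not read as a trait of the members.

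The clusters as a whole held more summits per length than the genome. Members less than 500 kb apart were joined, which split Hist1 into a centromere-proximal block of 23 genes and a distal block of 31, and each interval was extended by 20 kb. The 5 intervals, 992.8 kb in all, held 68 summits, or 6.85 per 100 kb, and the genome held 3.43 per 100 kb. The proximal block (chr13:21695763-22063676) had 4.35 per 100 kb and the distal block (chr13:23511050-23954851) 5.86. Hist2 (chr3:96199865-96290132) had 15.5, Hist3 (chr11:58928920-58976830) 16.7 and Hist4 (chr6:136781553-136824415) 9.33. In these small clusters many summits lay in the flanks. Between the first gene start and the last gene end lay 7 of 14 in Hist2, 3 of 8 in Hist3 and 0 of 4 in Hist4. Without flanks the 5 intervals held 45 summits, 5.68 per 100 kb. Of the 68, 21 lay within 1 kb of a histone TSS, of which 3 were also within 1 kb of a TSS of Trim17 or Bola1. A further 2 lay within 1 kb of the TSS of another gene alone, Zfp184 with a signal of 154 and the iron-regulating gene Hfe with 59.4.

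The stretch between the Hist1 blocks was sparse. Over its 1.45 Mb it held 19 summits, 1.31 per 100 kb, with a median signal of 121. It holds 40 protein-coding genes, 36 of them Vmn1r vomeronasal receptor genes, and 3 were occupied, namely Vmn1r220, Abt1 and Btn2a2. With both blocks and this stretch taken as a single interval, the density over all clusters was 3.57 per 100 kb.

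**Figure D5:**
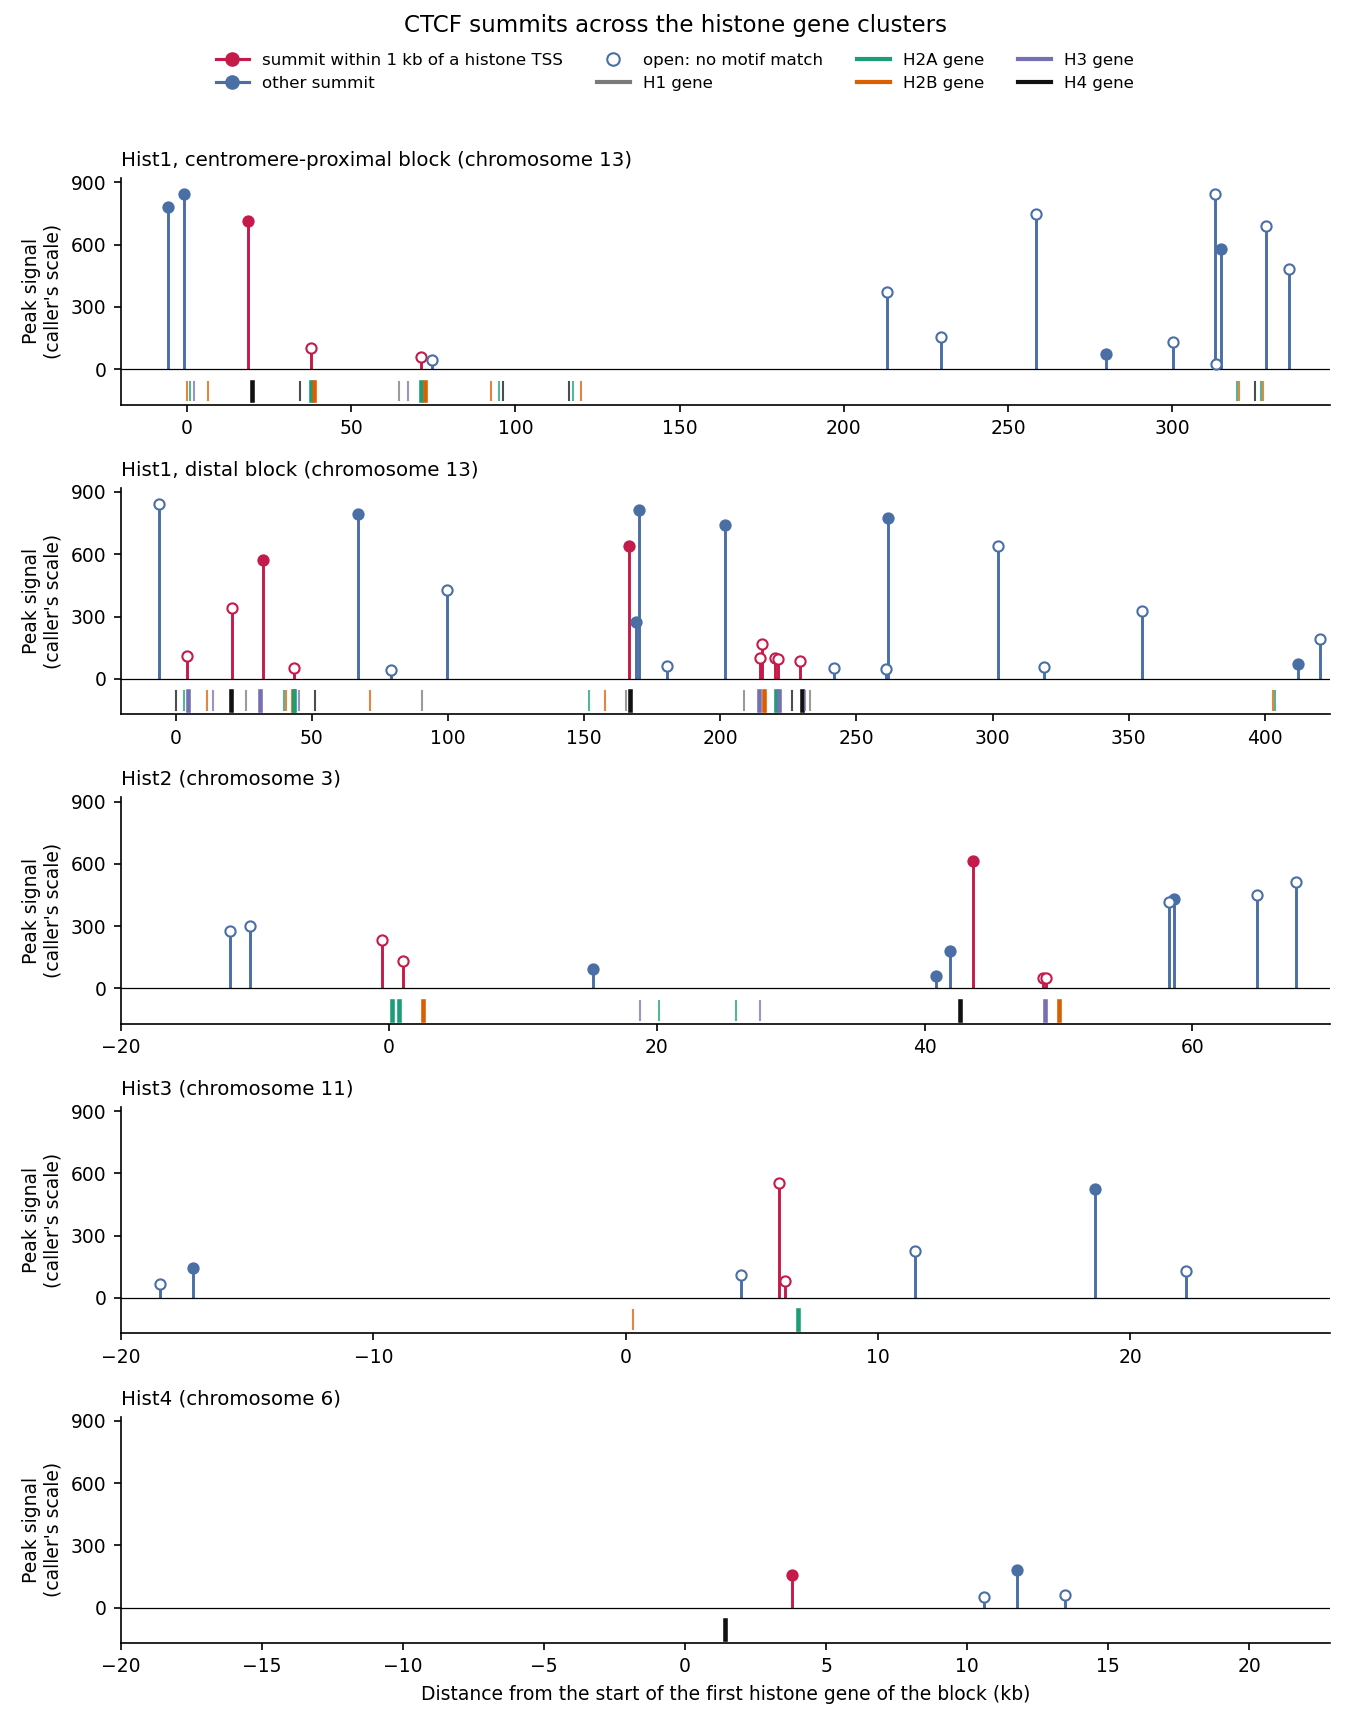
CTCF summits across the 5 histone intervals, with distance from the first histone gene (x axis, kb) and peak signal (y axis, caller's unit); stems in red lie within 1 kb of a histone TSS, filled heads carry a motif match, and ticks below the axis are histone genes coloured by type, thicker where occupied. The widest stretch without a summit, 138420 bp in the proximal Hist1 block, covers 6 genes.

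Strong summits lay near both ends of the proximal Hist1 block and ahead of the distal block. The strongest of all 68 had a signal of 846, at position 22028856 near the far end of the proximal block, 6712 bp from Hist1h2ah. The next, 843.3, lay at 23524824, which is 6226 bp before Hist1h4h, the first gene of the distal block. Another, 842.7, lay at 21714917, just before the first gene of the proximal block and 1226 bp from the TSS of Hist1h2bl. Its replicate signals were 418 and 428. The list of each replicate held a summit within 100 bp of it, but the list from pooled reads did not. A site of 813 lay 2931 bp upstream of Hist1h4c, and a site of 794 lay within the long annotated body of Hist1h2be. The weakest 3 summits had 26.5, near the strongest at 22028856, 43.1 in the body of Hist1h2be, and 43.5 at 2817 bp from Hist1h2bp. Of the 21 histone promoter summits 6 exceeded a signal of 300, and of the other 47 in the intervals 21 did.

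The strongest summits were not all matched to the motif. That of 846 had no match even with 2 mismatches, and that of 843.3 had 2 mismatches, so both counted as unmatched. Of the matched sites outside promoters, 5 strong ones are shown on the strand of their match, to give the letters found there. The sites labelled outer edge and inner edge both lie before the first gene of the proximal block. The inner edge site is the nearer to that gene. The site named by Hist1h2ah is a neighbour of the unmatched summit of 846 and has a signal of 581.
Proximal block, outer edge, plus strand, chr13:21710080-21710111: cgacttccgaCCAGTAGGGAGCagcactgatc
Proximal block, inner edge, plus strand, chr13:21714902-21714933: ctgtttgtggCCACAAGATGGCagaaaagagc
Proximal block, 4924 bp from Hist1h2ah, minus strand, chr13:22030622-22030653: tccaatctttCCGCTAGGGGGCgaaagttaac
Distal block, Hist1h2be body, minus strand, chr13:23598165-23598196: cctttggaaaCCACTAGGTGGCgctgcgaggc
Distal block, upstream of Hist1h4c, plus strand, chr13:23701370-23701401: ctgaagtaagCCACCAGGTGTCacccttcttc

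In the proximal block 2 matched summits had the motif on the plus strand and 3 on the minus strand. Those on plus were the 2 at its beginning, with signals of 781 and 843, and those on minus followed at Hist1h4j with 713, near Prss16 with 72.7 and near Hist1h2ah with 581. This order covers the matched summits only. Summits with 2 mismatches had their best placement on either strand, such as plus at 21974347 with 748 and minus at 22044329 with 689. Motif orientation is known to matter for loops, which tend to join sites that point toward each other. In the distal block 3 matched summits were on plus and 5 on minus, in Hist2 3 and 2, in Hist3 2 and 0, and in Hist4 0 and 2. No contact data were used here.

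Long stretches without summits coincided in part with the copied genes. The widest, 138420 bp in the proximal block, held the 6 Hist1 genes with recurring shares of at least 95.4%. The widest in Hist2, 25637 bp, held the 4 Hist2 genes with recurring shares over 50%. In the distal block the widest was 66738 bp and held Hist1h2ac, Hist1h2bc and Hist1h1t, whose recurring shares were 34.0%, 34.0% and 0%.

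Genes that act on histone genes or histones were also read. Of 8 genes for histone gene transcription 2 were occupied, Pou2f1, the octamer-binding factor, with a signal of 614 and Npat with 359. The unoccupied 6 included all of Nfya, Nfyb and Nfyc, the NF-Y subunits, and Hinfp, a regulator of H4 genes. Of 18 genes for histone mRNA processing 12 were occupied, led by Lsm11, a U7 component, with 933, Snrpe with 839.9 and Cpsf1 with 739, and unoccupied were among others Slbp and Snrpb. Of 14 variant histone genes outside the clusters 6 were occupied, led by H3f3b with 768, H2afx with 440.4 and H1fx with 373, and unoccupied were among others Cenpa and H1f0. Of 14 histone chaperone genes 9 were occupied, led by Asf1b with 674, Asf1a with 439 and Hira with 273, and unoccupied were among others Atrx and Chaf1a. The exact intervals were 3.19% to 65.1%, 41.0% to 86.7%, 17.7% to 71.1% and 35.1% to 87.2% in this order, beside 38.0% of all protein-coding genes.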

How the data were processed

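CTCF ChIP-seq peak lists on mm10, deposited by the authors, were used for 4 libraries (2 replicates of 2). Per the labels, the technical libraries of a replicate share an alignment. The aligner, caller and control: not given in the sources used here. Deposited peak signal and IDR score columns are scores of the authors, and the scale of the signal is not stated. The deposited IDR is given as -log10, and the deposited summit offset is in bp. Coordinates were made 1-based. Summits were read from the between-replicate list at an IDR of 0.05, for the 19 autosomes and X, and replicate signals from the ranked form of that list. GENCODE M21 (basic set) gave genes and TSSs, with sequence from GRCm38.p6, promoters from RefSeq (62 members matched). No value exists per library and no test was applied; intervals are 95% exact and cover counting only. Members and lists were chosen with earlier results of these data known. Named genes were the 10 strongest members, the 3 members nearest each side of the limit, the 5 strongest and 3 weakest summits, the extreme replicate ratios, members with a peak below the threshold, and the occupied or strongest list genes with the first unoccupied ones by alphabet. NF-Y subunits, Hinfp and genes named for their place were added after their values were seen. The motif search, occupancy count and word count were tested on simulated data. Tools were Python 3.11.15 with pandas 2.3.3, numpy 2.4.6 and, for intervals and figures, scipy 1.17.1 and matplotlib 3.10.9.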

Additional observations from a re-analysis of the deposited data

How the results depend on the processing

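Of 47 alternative values, 31 stayed within 1.5 times the main count, the spread of the replicates or the interval of the share, and 16 moved. Occupied members numbered 14 of 67 in the pooled-read list, where 31.2% of all protein-coding genes were occupied, and 45 of 67 within 5 kb, beside 59.6%. At an IDR of 0.01 they were 18 of 67 beside 34.7%, within 500 bp 16 of 67 beside 30.3%, and within 2 kb 32 of 67 beside 46.2%. With the TSSs of all transcripts they were 24 of 67 beside 43.9%. In the lists of a single replicate, 19 of 67 members were occupied without replicate 1, beside 33.7% of all protein-coding genes. Without replicate 2 they were 20 of 67, beside 34.0%. Not all were the same genes. Of the 24 in the main list, 16 were occupied in both of these lists and 5 in neither. The 5 included the pairs Hist1h2ak with Hist1h2bn and Hist1h2bf with Hist1h2ad. A further 4 members, unoccupied in the main list, were occupied in a single-replicate list. The restriction to at most 50% recurring words, which kept 24, was chosen after seeing the data. Occupied head-to-head pairs fell to 2 at an IDR of 0.01 and to 1 in the pooled-read list, and were 8 within 5 kb. The other protein-coding pairs were not counted under these settings, so these pair counts stand without a background. The intervals without flanks held 45 summits, 5.68 per 100 kb. The median signal of histone promoter summits was 156 at an IDR of 0.01, 165 in the pooled-read list, 131 with overlapping peaks reduced to the strongest, 103 within 500 bp, 143 within 2 kb and 131 within 5 kb. In the lists of a single replicate, which are on another scale, it was 69.6 to 70.6. The share with a motif match was 7.14% within 500 bp and 4.76% for exact matches. Read depth is unknown, so it sets no limit per peak.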

Other observations

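The letters of the motif matches recurred between clusters. Of the 22 matched summits in the histone intervals, 5 had the same 12 letters, namely the Hist4h4 site and those shown here on the strand of their match.
Upstream of Hist1h4c, minus strand, chr13:23699988-23700019: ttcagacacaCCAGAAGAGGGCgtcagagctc
Hist2h4 gene body, plus strand, chr3:96261745-96261776: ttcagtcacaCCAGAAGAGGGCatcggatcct
Trim11 gene, plus strand, chr11:58967526-58967557: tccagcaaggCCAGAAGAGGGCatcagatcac
Beyond Hist1h2aa, plus strand, chr13:23943032-23943063: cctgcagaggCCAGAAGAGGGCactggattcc

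These 12 letters were the most frequent match in the genome, at 15917 of 45381 matched summits, 35.1%, and 22.7% in the histone intervals. The assembly file masks repeats in lower case. All 5 histone-interval copies were fully masked, as were 99.8% of the copies genome-wide, against 43.6% of all matches. In rodents, B2 short interspersed elements are known to have spread CTCF motifs. The signals of the 5 were 524 in Trim11, 273 upstream of Hist1h4c, 182 in Hist2h4, 156 at Hist4h4 and 71.5 beyond Hist1h2aa. The exact Hist1h4j match was masked too, and in all 7 of the 22 were fully masked. The class of repeat was not read from the files.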
